A study of Drosophila melanogaster with 24 samples.

Results

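Beadex (Bx), disconnected (disco), disco-related (disco-r), H15 and midline (mid) encode 5 transcriptional regulators of Drosophila melanogaster, and they were described here by the peaks of the clock proteins CLOCK (CLK) and CYCLE (CYC) at their loci. A peak was counted for a gene when its midpoint lay inside the annotated gene or within 5 kb of it (RefSeq annotation of the dm6 assembly). By this rule 10 of 7810 peaks in 6 lists belonged to these 5 of 13922 protein-coding genes. Bx, disco and H15 were chosen by the width of their peaks in head, and disco-r and mid, the paralogues of disco and H15, were added beside them. Widths and counts in head are therefore given as a description, without a test.

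The study performed chromatin immunoprecipitation and sequencing (ChIP-seq), in which DNA fragments bound to a protein are pulled down and mapped as peaks, for CLK and CYC in heads, testes and ovaries. For each protein and tissue there were 2 libraries from an antibody against GFP and 2 input libraries of chromatin set aside before the pull-down, which made 24 libraries in 12 groups. All samples were taken at ZT 10 h, the time after lights on, and each biological replicate held 200 heads or 200 pairs of gonads. The sources used here did not give the fly genotypes, the driver of any tagged protein, the age of the flies or whether heads came from males, females or both, and the labelled tissues could not be checked against marker genes in lists of positions. Each list stood for 1 protein in 1 tissue without replicate values, so no spread between replicates can be set beside any value and read depth is unknown. For CLK the number of peaks was 1016 in head, 2491 in testis and 351 in ovary, and for CYC it was 394, 1583 and 1975.

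CLK and CYC are bHLH-PAS proteins that bind E-box DNA as a pair and drive the daily transcription of period, timeless, vrille and other clock genes. Bx encodes a LIM-only protein, which has LIM domains but no DNA-binding domain and competes with the LIM homeodomain protein Apterous for the cofactor Chip; in adult flies it is known from pacemaker neurons, where it affects the response to cocaine and locomotor rhythms. disco encodes a C2H2 zinc finger protein needed for the larval optic nerve to reach the brain and for the lateral clock neurons, and disco-r is its neighbour and partner in patterning the gnathal segments of the embryonic head. H15 and mid encode T-box proteins related to vertebrate Tbx20, which act together in the heart and in the ventral fate of the leg.

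Each of the 5 genes had exactly 1 CLK peak in head. Of all protein-coding genes, 17.2% had a CLK head peak under the same rule, and since head peaks chose 3 of the 5 genes, nothing is read from the difference. The 5 widths, as end minus start, were 901 bp at Bx, 758 bp at disco, 508 bp at H15, 344 bp at mid and 221 bp at disco-r, against a median of 285 bp for the list. In both paralogous pairs, the gene chosen for its width had the wider peak, which the choice itself favours, so nothing is read from it. The disco-r peak was narrower than the list median. H15 was the only one of the 5 with a CYC peak in head, where 8.20% of all genes had one and 3.22% had peaks of both proteins. Bx, disco-r and mid had a peak in the CLK head list alone, as did 5.24% of all genes. In testis H15 again was the only one with peaks, 1 of CLK and 2 of CYC, where 36.3% and 23.1% of all genes had one. In ovary disco alone had a peak, of CYC, where 22.2% of all genes had one of CYC and 3.76% one of CLK.

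**Figure D1:**
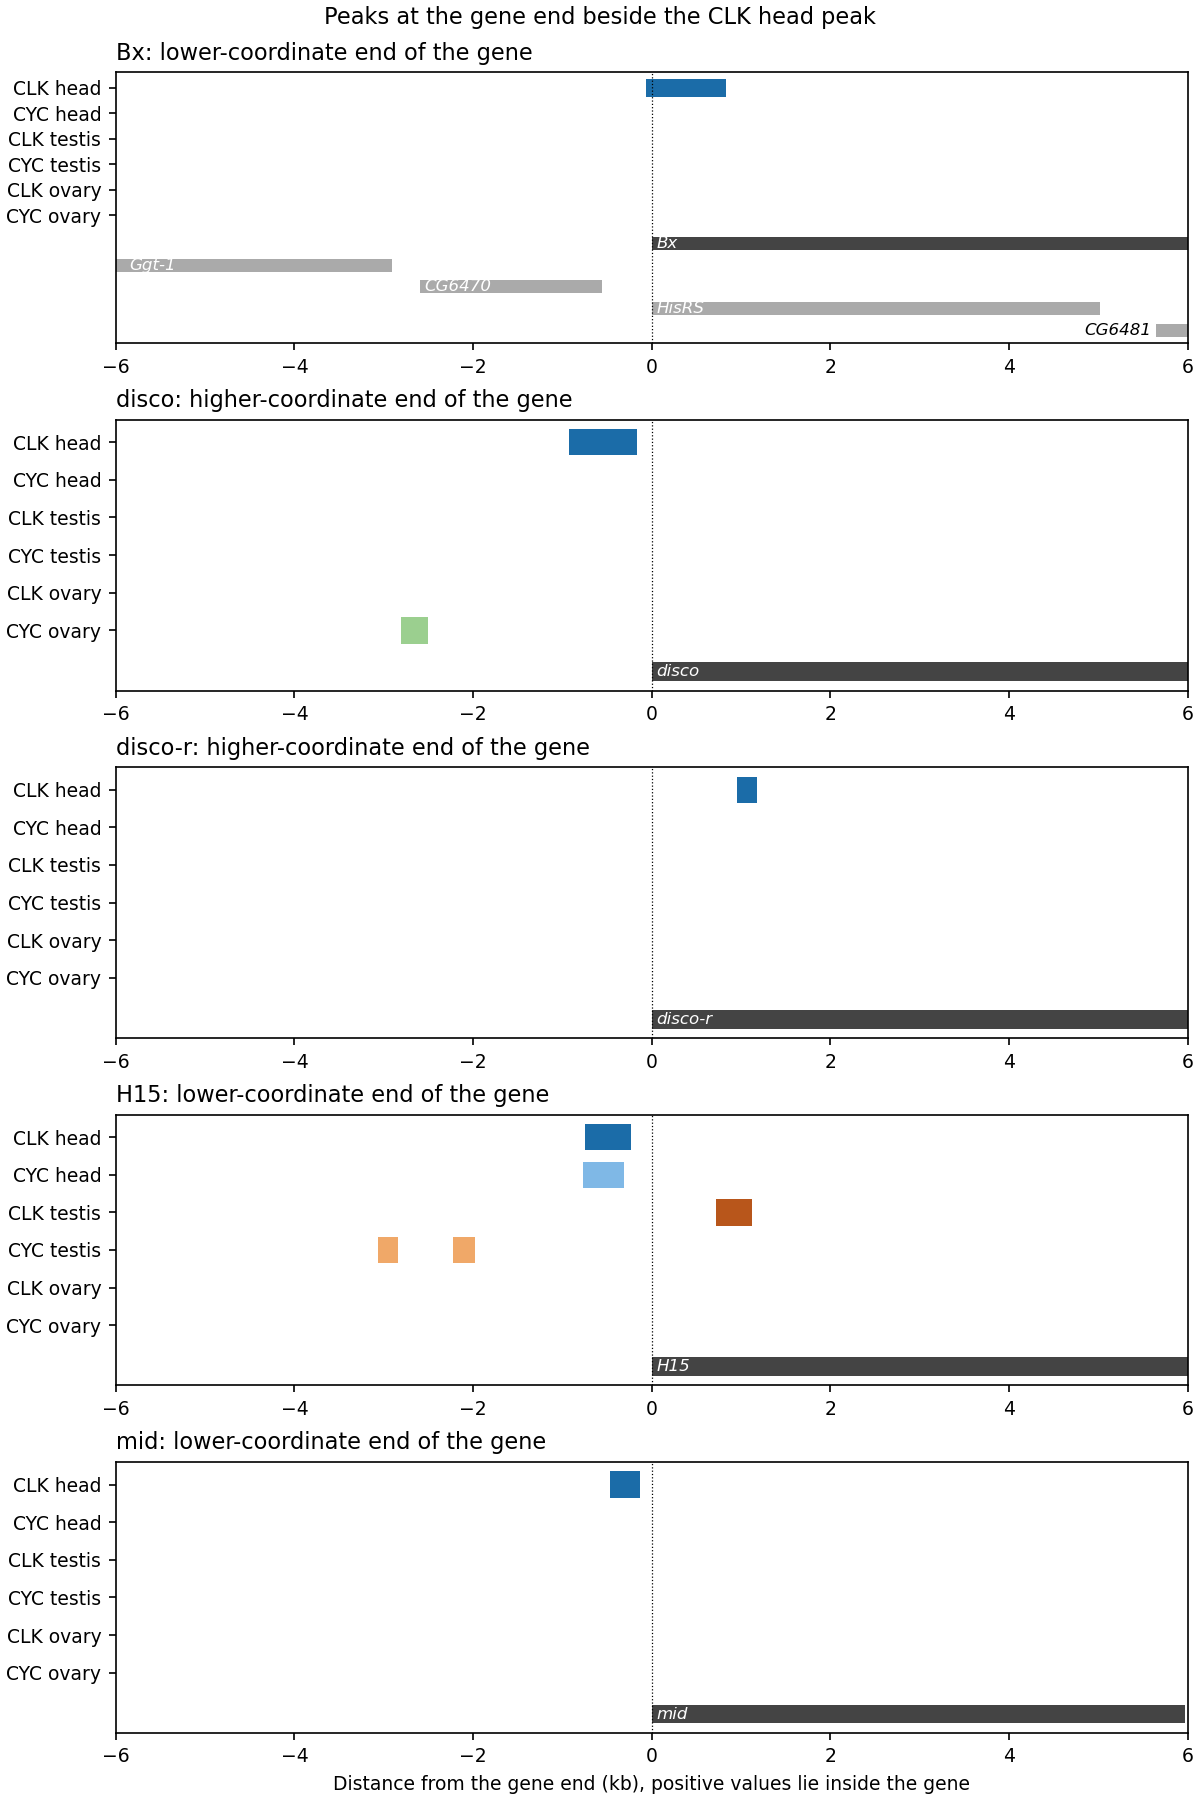
Peaks of the 6 lists (coloured bars, to scale) around the gene end nearest to the CLK head peak of each gene, with distance from that end in kb on the x axis and annotated genes as grey bars below. All 10 peaks lie within 3 kb of an end of their gene, and CLK head is the only list with a peak in all 5 panels.

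At Bx (X, 18515428 to 18572809, 57.4 kb), the CLK head peak spanned 18515359 to 18516260. It crossed the lower-coordinate end of the gene, with 832 of its 901 bp inside the annotation. It was the 10th widest of 1016 CLK head peaks and the 2nd widest of the 147 on the X chromosome. Within 5 kb, 24 protein-coding genes (0.172%) had a CLK head peak at least as wide, and neighbours that share a peak are counted separately here. The annotation places the lower end of HisRS, which encodes histidyl-tRNA synthetase, at the same base as that of Bx, and HisRS runs from there to 18520445 within the Bx gene. CG6470 ends 492 bp outside the peak and Ggt-1, a gamma-glutamyl transpeptidase gene, lies 3.29 kb from its midpoint. The peak therefore cannot be assigned to Bx over HisRS from position. No other peak of any of the 6 lists had its midpoint in the 57.4 kb of Bx or within 5 kb.

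Outside that limit, the nearest peaks to Bx were of CLK in ovary at 14.2 kb (252 bp wide) and of CYC in ovary at 22.3 kb (383 bp). The nearest CYC head peak was 285 kb away. The nearest testis peaks were 1805 kb away for CLK and 1315 kb for CYC. Ovary peaks were thus the closest to Bx after the CLK peak of head. The lists differed in density on the X, which held 17.2 CYC and 4.55 CLK peaks of ovary per Mb. It held 1.74 CYC peaks of head, and 1.44 CLK and 2.38 CYC peaks of testis, per Mb. Nothing particular to Bx is therefore read from the order of these distances.

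At disco (X, 16210598 to 16216750, 6.15 kb), the CLK head peak spanned 16216920 to 16217678. It lay wholly outside the gene, 170 bp beyond the higher-coordinate end, and ranked 17th of 1016 by width, and 5th of the 147 on the X. At least as wide a CLK head peak was found at 34 genes (0.244%). The CYC ovary peak of disco, at 16219259 to 16219559, lay on the same side of the gene, 2.66 kb from that end by its midpoint. At 300 bp it was close to the median of its list, 312 bp, and ranked 1063rd of 1975. The 2 peaks were 1581 bp apart, edge to edge, and belonged to different proteins and tissues. Peaks in exactly these 2 lists were found at 188 genes (1.35%). The nearest CYC head peak to disco was 147 kb away.

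At disco-r (X, 16118067 to 16148977, 30.9 kb), the CLK head peak at 16147800 to 16148021 lay inside the gene, 1067 bp from the higher-coordinate end, which is the end that faces disco. It ranked 853rd of 1016 by width, and 83.9% of the list was wider. A CLK head peak at least this wide was found at 2050 genes (14.7%). The other 5 lists had no peak in the gene or within 5 kb, and taking the nearest peak of each, the closest were of CYC in ovary at 33.96 kb and of CYC in head at 54.4 kb.

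At H15 (2L, 5404280 to 5416593, 12.3 kb), CLK and CYC of head shared a site outside the lower-coordinate end. The CLK peak spanned 5403537 to 5404045 and the CYC peak 5403507 to 5403971. They had 434 bp in common, which was 85.4% of the CLK peak and 93.5% of the CYC peak, and their midpoints were 52 bp apart. Across the head lists 117 pairs of CLK and CYC peaks met, with a median overlap of 239 bp and a median midpoint distance of 50.5 bp, and 12 pairs overlapped by more than those of H15. The CLK peak ranked 76th of 1016 and the CYC peak 45th of 394 by width, and 179 genes (1.29%) had a CLK head peak at least as wide as that of H15. Among all CLK head peaks 11.5% met a CYC head peak (117 of 1016, exact Clopper-Pearson 95% interval 9.62 to 13.6%), and 1 of the 5 described here did. Of the 2399 genes with a CLK head peak, 18.7% also had one of CYC in head.

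The testis peaks of H15 lay at other positions than the head peaks. The CLK testis peak, at 5404996 to 5405399 (403 bp), was inside the gene, 918 bp from the lower end, and its edge was 951 bp from the CLK head peak. The CYC testis peaks, at 5401216 to 5401435 (219 bp) and 5402058 to 5402302 (244 bp), lay outside the same end, 2.95 kb and 2.10 kb from it. The nearer of them was 1205 bp from the CYC head peak, edge to edge. None of the 3 testis peaks met another peak of any list, and CLK and CYC of testis lay on opposite sides of the gene end. Such overlap was uncommon in the whole lists. Of all CLK testis peaks, 8.91% met one of CYC in testis and 1.16% one of CLK in head. Of all CYC testis peaks, 14.3% met one of CLK in testis and 0.505% one of CYC in head. Nothing particular to H15 is therefore read from the separate positions. The CLK testis peak ranked 409th of 2491, whereas the CYC testis peaks were below the median of their list, 272 bp. Testis peaks were common on chromosome 2L, where 39.9% of genes had one of CLK and 29.6% one of CYC within 5 kb. H15 thus had peaks in 4 of the 6 lists. Over all genes, 300 (2.15%) had peaks in 4 or more lists, and 44 including H15 (0.316%) had them in exactly these 4.

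At mid (2L, 5461639 to 5467610, 5.97 kb), the CLK head peak at 5461168 to 5461512 lay 127 bp outside the lower-coordinate end, on the side that faces H15. Its width of 344 bp ranked 323rd of 1016, and 791 genes (5.68%) had one at least as wide. No other list had a peak within 5 kb. Taking the nearest peak of each other list, those closest to mid were of CLK in testis at 51.6 kb and of CYC in head at 57.9 kb, the latter being the CYC peak of H15.

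**Figure D2:**
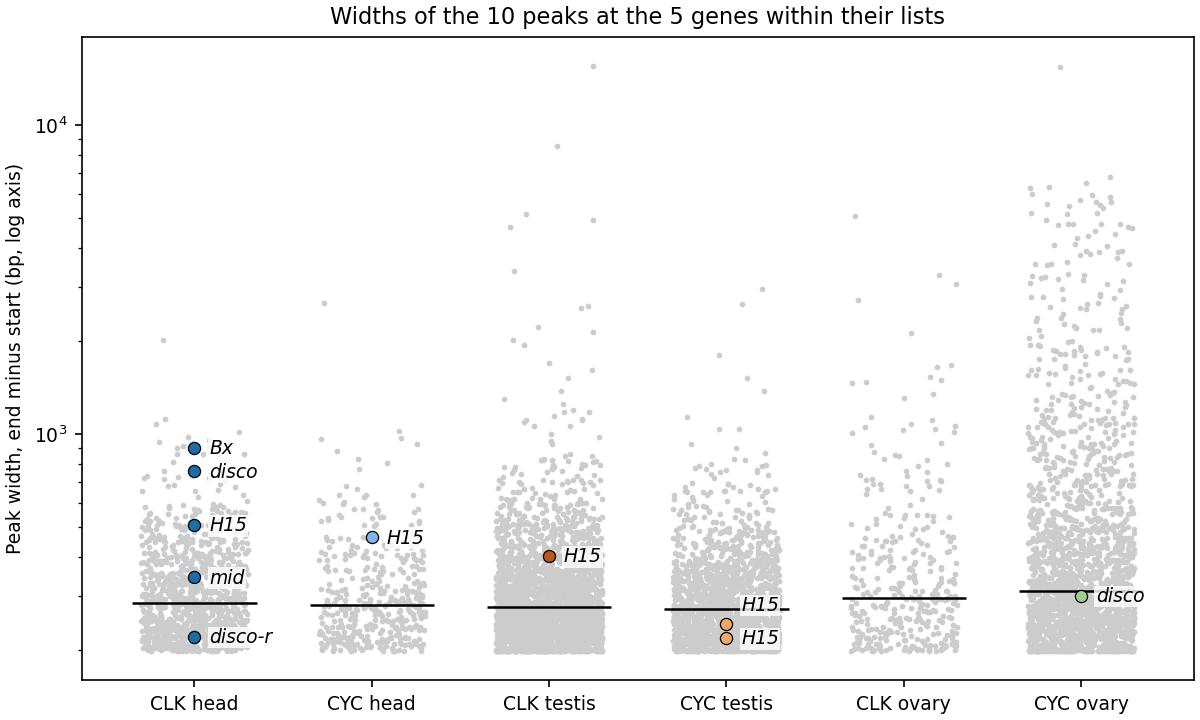
Peak width (end minus start, bp, log axis) for every peak of each list in grey, with the list median as a black line and the 10 peaks at the 5 genes as labelled points. The CLK head peaks run from 221 bp at disco-r to 901 bp at Bx, and the CYC testis peaks of H15 and the CYC ovary peak of disco lie below their list medians.

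Distances from the CLK head peaks to the gene ends were also taken. The midpoint of the CLK head peak was 299 bp from an end at mid, 382 bp at Bx, 489 bp at H15, 549 bp at disco and 1067 bp at disco-r. For the 2399 genes with a CLK head peak, the median distance to the gene's own nearest end was 1503 bp. Of them 40.8% were within 1 kb, against 4 of these 5 genes, with disco-r beyond it. Part of this distance comes from neighbours, since a peak counts for every gene within 5 kb. Over peaks rather than genes, the median distance to the nearest protein-coding end was 436 bp for CLK in head, near the middle of the values of the 5 genes. Of these peaks 63.7% were within 1 kb of such an end. Whether the 5 genes differ from the list was not tested. For every one of the 10 peaks the nearest annotated gene end belonged to the gene described here, with HisRS tied at Bx. The annotation used here gave no strand, so which end is the transcription start is not stated.

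Where testis lists had no peak, the nearest one was far off on the X and closer on 2L. For Bx, disco and disco-r, all on the X, the nearest testis peaks were at least 983 kb away, and at mid they were 51.6 and 59.5 kb away. Only 34 of 2491 CLK testis peaks (1.36%) and 56 of 1583 CYC testis peaks (3.54%) lay on the X, where 1.14% and 2.18% of genes had a peak within 5 kb. At these densities the 124 kb of the 3 X-linked windows would hold 0.180 CLK and 0.296 CYC testis peaks, and the testis lists held few peaks along the whole of the X. For CYC in ovary the X was well covered, with 25.3% of its genes called, and the same windows would hold 2.15 peaks against the 1 observed at disco. For CLK in ovary, which had no peak at the 5 genes, at its own densities on X and 2L the windows would hold 0.566 and 0.0850 peaks. In head, CLK had 3 peaks in the X-linked windows and 2 in those of 2L, where 0.777 and 0.324 would follow from the density of the list. Bx, disco and H15 were chosen by their head peaks, so nothing is read from this difference.

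**Figure D3:**
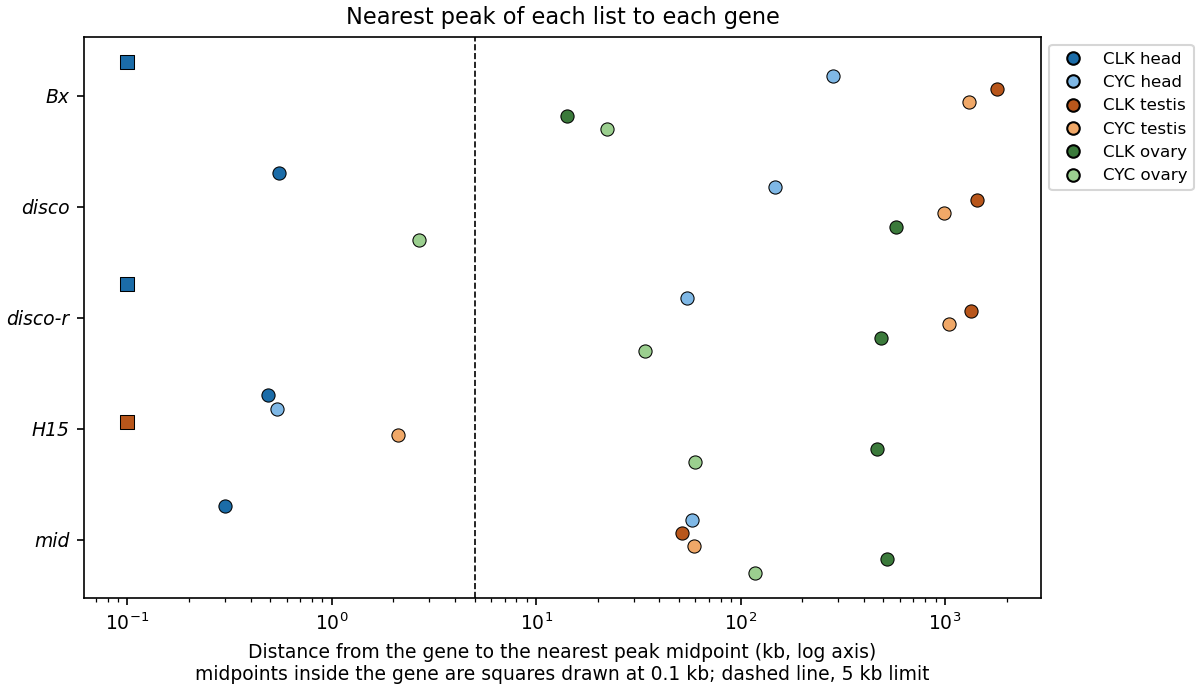
Distance in kb (log axis) from each gene to the nearest peak midpoint of each list, with midpoints inside the gene drawn as squares at 0.1 kb and the 5 kb limit as a dashed line. CLK head lies left of the limit for all 5 genes, and no peak lies between 2.95 kb and 14.2 kb from any of them.

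The 5 kb limit did not divide closely placed peaks. The peak farthest out but still inside it was the CYC testis peak of H15 at 2.95 kb (219 bp wide). The first outside was the CLK ovary peak at 14.2 kb from Bx (252 bp wide), and the next were 2 ovary peaks at 22.3 and 22.5 kb from Bx.

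The members of each pair lie near each other, so the sequence between them was examined as well. disco-r and disco are 61.6 kb apart, with no protein-coding gene annotated in between, and the microRNA gene mir-985 and lncRNA:CR46211 lie in the interval. No peak of any list had its midpoint there. H15 and mid are 45.0 kb apart, again with no protein-coding gene, 4 long noncoding RNA genes and 1 small nucleolar RNA gene in between. The only peak there was the CLK head peak of mid, 299 bp from that gene. From 5 kb outside disco-r to 5 kb outside disco there were 2 CLK head peaks and 1 CYC ovary peak in 109 kb, and from H15 to mid there were 2 CLK and 1 CYC peaks of head and 1 CLK and 2 CYC peaks of testis in 73.3 kb. All 9 lay within 3 kb of an end of one of the 4 genes, and the long stretches between the paralogues were otherwise empty in these lists. By list, the whole X held from 0.144 (CLK testis) to 1.72 (CYC ovary) peaks per 100 kb. On 2L the range was from 0.222 (CLK ovary) to 2.41 (CLK testis). These are densities of single lists, and the 6 lists together held 5.14 peaks per 100 kb of X and 2L. Whether the stretches hold fewer peaks than their chromosomes was not tested, and nothing is read from them.

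**Figure D4:**
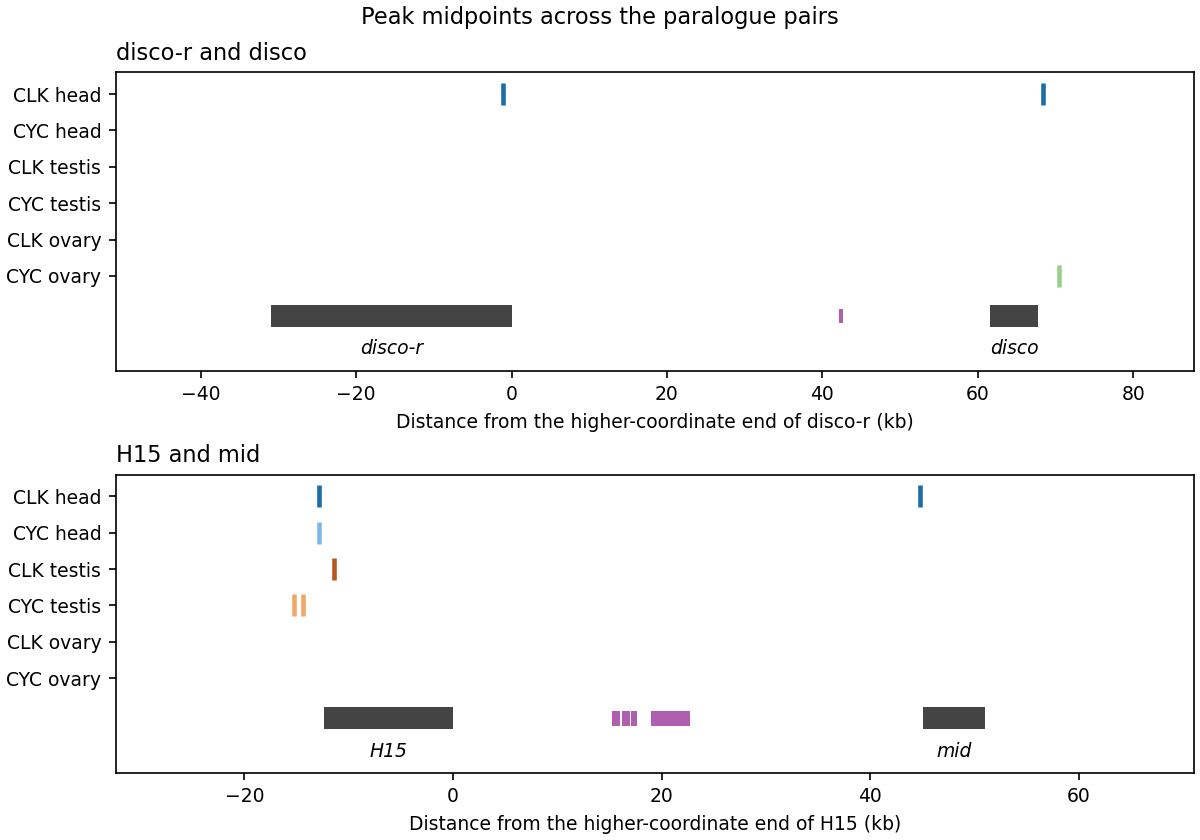
Peak midpoints of the 6 lists (vertical marks) along the disco-r to disco and H15 to mid regions, with 20 kb on either side and distance in kb from the higher-coordinate end of the first gene. Dark bars are the paired genes and purple bars the noncoding RNA genes between them; the marks sit at the genes and none lies midway.

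The genes most like Bx by width in the 6 lists, among 728 others with peaks in CLK head alone, were Ggt-1, CG6470 and HisRS, which hold the very same peak within 5 kb. Among genes away from the locus, a choice made after these values were seen, CG12301, AIMP2 and CG7656 were the nearest. These 3 are neighbours on 3L and had a widest CLK head peak of 911 bp each, so they again stand for 1 site. Like disco were CG12075 (X), CG6125 and Tnks, a tankyrase gene (both 3R), with summed differences in log2(width + 1) over the 6 lists of 0.29, 0.35 and 0.61. Their CLK head peaks were 636, 858 and 562 bp wide and their CYC ovary peaks 292, 337 and 265 bp wide. For H15 the nearest were RhoGEF64C, CG15099 and snu, which encodes an ABC transporter, with differences from 1.18 to 1.53. The CLK and CYC head peaks of snu were 595 and 466 bp wide, against 508 and 464 bp at H15.

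Genes that work with the 5, or belong to the same families, were counted by the same rule. Of 10 LIM homeodomain genes and partners of LIM proteins, 5 had a CLK head peak, namely Ssdp, tup, Lim3, Awh and Lmx1a, against 17.2% of all genes and 27.9% of the longest 20% of genes. Ssdp, tup, Awh and Lmx1a also had CLK testis peaks, 4 of 10 against 36.3% of all genes. CYC had peaks at 1 of 10 in head and 1 of 10 in testis, against 8.20% and 23.1%. In ovary 0 of 10 had a peak of CLK and 2 of 10 one of CYC, against 3.76% and 22.2%. Chi, the cofactor that binds Bx protein, had no peak in any list, and ap, the gene of Apterous, had 1 CYC ovary peak (318 bp). Of all genes, 67.6% had a peak in 1 or more of the 6 lists. At Awh, a LIM homeodomain gene, CLK (310 bp) and CYC (298 bp) of head met over 246 bp, 312 and 254 bp from the lower end by their midpoints. In 4 of the 5 genes a CLK head peak lay within 1 kb of an end, from 260 bp at tup to 312 bp at Awh, and at Ssdp it was 3178 bp away. Of all genes with a CLK head peak, 40.8% had one within 1 kb of an end. The widest of these CLK head peaks was 351 bp, at Lim3. Bx, disco and H15 were chosen for width, and only 1.29% of all genes had a CLK head peak as wide as that of H15. Nothing is therefore read from a comparison of widths with them.

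Of the 6 other T-box genes, 1 had a CLK head peak, bi, the gene of optomotor-blind, with 2 peaks of at most 350 bp. None had a CYC head peak. org-1 had 1 CLK and 2 CYC peaks of ovary, the widest of 664 bp, and Doc2 had testis peaks of CLK (430 bp) and CYC (296 bp), the latter shared with Doc3. Doc3 had a further CYC testis peak of 283 bp inside the gene. byn had a CYC testis peak of 370 bp, and Doc1 had no peak in any list. The share of the 6 genes with a CLK head peak, 16.7%, was near that of all genes, 17.2%. In testis 1 of 6 had a peak of CLK and 3 of 6 one of CYC, against 36.3% and 23.1% of all genes. In ovary 1 of 6 had a peak of CLK and 1 of 6 one of CYC, against 3.76% and 22.2%.

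Of 10 head and limb patterning genes, 5 had a CLK head peak, namely Dll, hth, tsh, Dfd and btd, against 17.2% of all genes and 27.9% of the longest 20% of genes. Dll, the limb selector gene, had 2, the wider of 409 bp centred 98.5 bp from the lower end. At Dfd, a Hox gene of the gnathal segments, the peak was 152 bp from an end, at tsh, a zinc finger gene of the trunk, 154 bp, and at btd, a head gap gene, 174 bp. The hth peak lay deep inside its gene, 25061 bp from an end. At btd a CYC head peak (302 bp) met the CLK peak (225 bp) over 208 bp. Ovary CYC peaks were found at hth, tsh, Dfd and btd, 4 of 10 against 22.2% of all genes and 33.1% of the longest 20% of genes. In testis 2 of 10 had a peak of CLK and 0 of 10 one of CYC, against 36.3% and 23.1% of all genes. exd, dac, tio and Scr had none in any list, and lab had a CLK testis peak only. Over all genes, 67.6% had a peak in 1 or more of the 6 lists, so such absences are common and nothing is read from them.

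For comparison, of 9 clock and pacemaker neuron genes, per, tim, vri, Pdp1 and Clk had CLK head peaks, and all of these but Clk also had CYC head peaks. These were 5 and 4 of 9 genes, against 17.2% of all genes for CLK and 8.20% for CYC. In testis 3 of 9 had a peak of CLK and 4 of 9 one of CYC, against 36.3% and 23.1% of all genes. In ovary these were 2 of 9 for CLK and 5 of 9 for CYC, against 3.76% and 22.2%. cyc had peaks in testis and ovary but none in head. Pdf, Pdfr and cry had none in any list, where 67.6% of all genes had a peak in 1 or more. The widest CLK head peaks were 2020 bp at vri, 1120 bp at tim and 1075 bp at per, and the widest of Pdp1 was 730 bp. vri had 6 CLK and Pdp1 had 9 CLK peaks of head, where each of the 5 genes described here had 1. CLK head peaks met CYC head peaks in 6 of 6 cases at vri, 2 of 2 at tim, 2 of 3 at per, 4 of 9 at Pdp1 and 0 of 3 at Clk. At the genes described here they met in 1 of 5 cases. Over the whole CLK head list, 117 of 1016 peaks (11.5%) met a CYC head peak. Whether these lists differ from other genes was not tested.

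**Figure D5:**
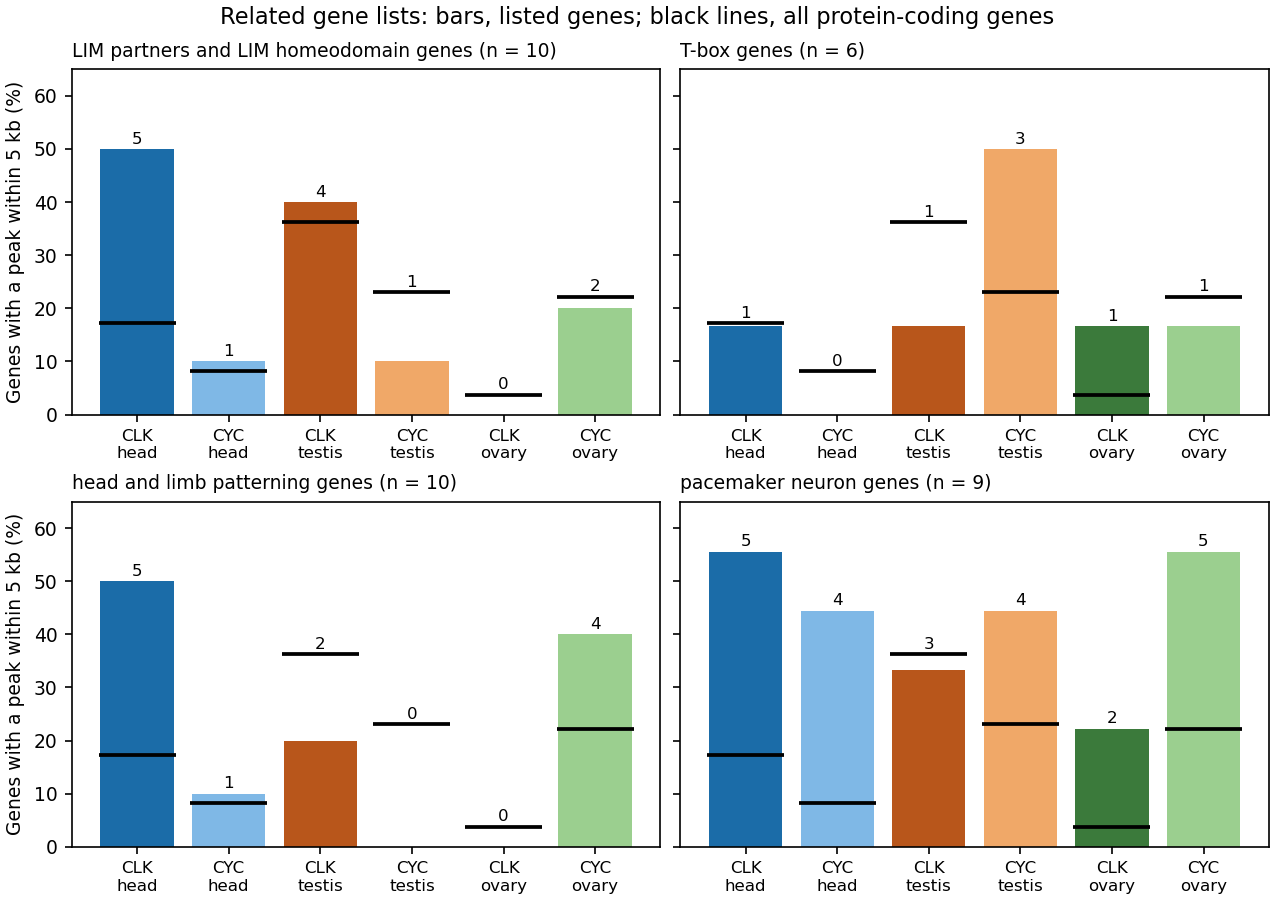
Percent of genes with a peak midpoint inside the gene or within 5 kb, by list, for the 4 related gene lists (bars, with the number of genes above) and for all 13922 protein-coding genes (black lines). In CLK head 5 of 10 LIM-related and 5 of 10 patterning genes have a peak, against 1 of 6 other T-box genes.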

How the data were processed

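ChIP-seq with an antibody against GFP was done for CLK and CYC in head, testis and ovary (2 GFP and 2 input libraries each). Per the labels' protocols, chromatin was sheared to 100 to 500 bp and 5% was kept as input. The submitters' processing notes name dm6, MACS2, ChIPseeker, fastp, Bowtie2, SAMtools, Picard and deepTools; their versions, the peak threshold and how replicates were combined are not stated there. The authors deposited 1 list of peak positions (chromosome, start, end) a protein and tissue, so that no peak height, enrichment or summit enters any value. Lists were matched to tissues by the initial in their names. Starts may be counted from 0 or 1 and are printed as deposited; width is end minus start.

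Genes came from RefSeq (assembly Release 6 plus ISO1 MT), matched by symbol, and all 5 members and 35 related genes were found. Overlap meant at least 1 bp. Density was the number of peaks on a chromosome over its length to the last gene or peak. The counting was tested on simulated peaks. Named genes were all members, related genes with head peaks of both proteins, up to 3 others per list by widest peak, the 3 genes of most like pattern, and neighbours of member peaks; further related genes were named after their values were seen. Members and lists were chosen with earlier results of these data known. Intervals are exact Clopper-Pearson and cover the counting of peaks only. Python 3.11.15, pandas 2.3.3 and scipy 1.17.1 were used. The planned search for E-box letters was not run, since no sequence was used here. No comparison was tested, since each group had 1 list.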

Additional observations from a re-analysis of the deposited data

How the results depend on the processing

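Peaks were few, so small changes of the rule moved counts. With midpoints inside the gene only, CLK head had 2 peaks in place of 5, CYC head, CYC testis and CYC ovary had 0, and CLK testis kept its count of 1. With midpoints within 1 kb, CYC testis and CYC ovary had 0 peaks, so the widest CYC testis peak of H15 and the widest CYC ovary peak of disco became 0 bp; CLK head still had 5. In the widest 50% of each list CYC testis and CYC ovary again had 0, and CLK head had 4. With 10 kb, with any overlap in place of the midpoint, and for the shared head site with reciprocal overlap of 50%, midpoints within 200 bp or the widest 50%, the counts at the 5 genes were as reported. Between the inner ends of the paralogues, the disco-r to disco interval had 0 CLK head and 0 CYC ovary peaks, and the H15 to mid interval had 1 CLK head peak and 0 of CYC head, CLK testis and CYC testis. The share of all genes with a peak within 1 kb was 9.07% for CLK head, 4.13% for CYC head, 17.8% for CLK testis, 10.1% for CYC testis, 1.73% for CLK ovary and 11.1% for CYC ovary. In the widest 50% it was 9.17, 4.07, 20.9, 12.8, 1.87 and 10.4% in the same order. With 10 kb it was 12.5% for CYC head and 6% for CLK ovary, and the other 4 lists stayed within 1.5 times. These shifts follow from the construction, with narrower windows or fewer peaks. No paired analysis was possible because each protein and tissue had 1 list and no result came from a test, and for the same reason no replicate could be left out. Width is no measure of enrichment, and depth is unknown, so a list without a peak at a gene does not show that the protein is absent there.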
